A study of Mus musculus with 6 samples.

Results

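The clustered replication histone genes, which supply most of the histone protein needed to package newly copied DNA, were examined in RNA-seq data of mouse muscle stem cells (MuSCs). They were chosen by name and level: protein-coding genes with a symbol of the Hist1, Hist2, Hist3 or Hist4 series and a mean of at least 5 normalised reads over the 6 libraries. This gave 57 of the 22706 genes in the table, with 6 H1, 14 H2a, 15 H2b, 10 H3 and 12 H4 genes. Of 59 such protein-coding genes, Hist1h2ba and Hist1h2br were below the minimum, each with a mean of 0.667. Just above it stood Hist1h2ad with a mean of 5.0, Hist2h3c2 with 5.17 and Hist1h2bp with 5.5. All 57 genes entered the test, since the test used the same minimum.

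MuSCs were sorted by flow cytometry straight from the muscle of wild type mice (control) and of the mutants mdx and Sirt6mKO/mdx, with 2 libraries in each of 3 groups. Mdx mice lack dystrophin because of a mutation in Dmd and serve as a model for Duchenne muscular dystrophy. Sirt6mKO/mdx mice carry that mutation and, in addition, loxP sites around part of the exons of Sirt6, which are cut out by a Cre recombinase under the Pax7 promoter. This Cre is constitutively active, so it marks the Pax7 lineage and is not limited to adult MuSCs. The labels give the strain of all libraries as C57BL/6, while the methods name C57BL/10ScSn-Dmdmdx/J as the source of the mdx allele; the Sirt6mKO strain was also crossed with a ROSA26-YFP reporter. Age is not given by the labels. Captions of the paper's figures on these cells state male mice, with ages that vary between figures. According to the methods, cells with Sca1, CD45 or CD31 on their surface were first removed with magnetic beads, and MuSCs were then sorted as integrin α7+/CD34+ or by a fluorescent reporter, YFP in mice with the Pax7 Cre. Which of these gates was used for each library is not stated. Total RNA was depleted of ribosomal RNA and was not selected for poly(A), and the libraries were read on an Ion Torrent instrument.

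Replication histone mRNAs are the only animal mRNAs known to end without a poly(A) tail. Their 3′ end is a conserved stem-loop, bound by the protein SLBP, and is cut with the help of the U7 snRNP. They are made mainly in S phase, when DNA is copied, and are broken down when DNA synthesis stops. Core histones H2a, H2b, H3 and H4 form the nucleosome, and the linker histone H1 binds where DNA enters and leaves it. Adult MuSCs are mostly quiescent in uninjured muscle and enter the cell cycle during regeneration.

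Approximate depth ranged from 4397632 to 9743622 reads. Xist, which is expressed from the inactive X chromosome, had values of 16772 and 12950 (control), 7 and 8 (mdx) and 33 and 34 (Sirt6mKO/mdx). Ddx3y, a Y-linked gene, had 3 and 8 (control), 1024 and 1055 (mdx) and 1555 and 1767 (Sirt6mKO/mdx). The sex of the mice and the genotype therefore cannot be told apart in comparisons with control. The control values of Xist and Ddx3y are not those of male mice, which the paper's figure captions state. Sirt6 itself was not lower in the libraries labelled Sirt6mKO/mdx, with 41 and 32 (control), 33 and 40 (mdx) and 37 and 30 (Sirt6mKO/mdx), although this value sums all exons and not only those cut out. Small noncoding RNAs made up 24.0% and 15.6% (control), 26.5% and 19.0% (mdx) and 44.4% and 48.0% (Sirt6mKO/mdx) of all values. All 9 MuSC markers were detected, and their summed value ranged from 22216 to 23273 in control, from 18553 to 21938 in mdx and from 17002 to 19157 in Sirt6mKO/mdx.

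The genes lie in 4 groups of the GRCm38 genome. The Hist1 group held 48 of them on chromosome 13, all but Hist1h2al between 21715763 and 23764414. The Hist2 group held 6 genes on chromosome 3, between 96219865 and 96279001. The Hist3 group held Hist3h2a and Hist3h2ba on chromosome 11, and Hist4h4 stood alone on chromosome 6.

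The stem-loop that ends a replication histone mRNA was looked for in GENCODE M21 transcripts as GGNNCTTTTCAGNGCC, on the transcript strand. It was found in 24 of the 50 members that had a transcript there, and in 36 of 55450 genes of the annotation, 33 of which carry a Hist symbol. A missing match says only that these letters are not in the transcript models used. Of these 24, all 6 H4 genes had one form and all 18 genes of the other types had another. The pair is shown because the results below are given by histone type and the letters separate H4 from the other types. Capitals mark the stem arms, and DNA letters are used.
Hist1h2ab, chr13:23751572-23751587, plus strand: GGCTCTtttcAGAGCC
Hist1h4d, chr13:23581950-23581965, plus strand: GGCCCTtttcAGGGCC
Counted from 1 at the 5′ end, with the form of the other types first, the H4 form differed by T4C and A13G, which change both arms together.

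Promoters were read from RefSeq on GRCm38.p6, as 250 bases before and 50 after each start, and 51 members were matched. Capitals mark TATAAA (the TATA box), CCAAT (bound by NF-Y), ATTTGCAT (the octamer bound by POU2F1, known from H2b promoters) and GGTCCG (a short element known from H4 promoters), searched on both strands. Each motif was counted on its own, also where matches overlapped. TATAAA was found in 31 of 51 promoters, against 13.6% of 32851 mouse promoters. CCAAT was found in 43 of 51, against 37.4%, and the 8 without it were all H4 genes. ATTTGCAT was found in 11 of 51, against 1.74%, in 6 of 13 H2a and 5 of 13 H2b promoters and in no promoter of another type. Genes that start back to back can share a match, as Hist1h2ae does with Hist1h2bg and Hist1h2ah with Hist1h2bk. GGTCCG was found in 12 of 51, against 8.25%, and 10 of the 12 were H4 promoters. The promoters shown belong to members with some of the largest differences described below. That of Hist1h2bk also lies between it and Hist1h2ah, which starts 178 bases away on the other strand.
Hist1h2ab, chr13:23750838-23751137, plus strand: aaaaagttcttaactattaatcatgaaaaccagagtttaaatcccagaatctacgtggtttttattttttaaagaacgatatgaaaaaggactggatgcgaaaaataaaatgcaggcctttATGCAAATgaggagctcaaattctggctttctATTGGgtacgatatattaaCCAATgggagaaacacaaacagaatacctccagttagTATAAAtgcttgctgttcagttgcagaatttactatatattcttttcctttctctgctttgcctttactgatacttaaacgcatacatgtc
Hist1h2bk, chr13:22035571-22035870, plus strand: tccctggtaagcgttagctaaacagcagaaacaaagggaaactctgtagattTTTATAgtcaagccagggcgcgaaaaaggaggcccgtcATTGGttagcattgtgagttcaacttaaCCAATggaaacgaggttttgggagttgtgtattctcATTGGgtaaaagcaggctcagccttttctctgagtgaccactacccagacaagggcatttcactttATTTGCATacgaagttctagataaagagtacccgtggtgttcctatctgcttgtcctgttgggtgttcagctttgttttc
Hist1h1b, chr13:21780576-21780875, minus strand: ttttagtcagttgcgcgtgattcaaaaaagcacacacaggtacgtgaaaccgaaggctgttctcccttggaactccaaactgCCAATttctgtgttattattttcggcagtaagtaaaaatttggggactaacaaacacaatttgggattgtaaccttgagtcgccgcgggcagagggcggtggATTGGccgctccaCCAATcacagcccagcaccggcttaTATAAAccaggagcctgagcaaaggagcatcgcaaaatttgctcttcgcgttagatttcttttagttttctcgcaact
Hist1h4d, chr13:23581318-23581617, plus strand: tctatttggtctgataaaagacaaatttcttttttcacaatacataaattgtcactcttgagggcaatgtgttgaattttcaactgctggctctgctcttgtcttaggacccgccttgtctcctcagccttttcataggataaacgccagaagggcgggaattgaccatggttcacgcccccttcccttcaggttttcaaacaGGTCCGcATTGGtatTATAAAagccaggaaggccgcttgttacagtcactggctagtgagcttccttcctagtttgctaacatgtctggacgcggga
Hist1h4c, chr13:23698409-23698708, minus strand: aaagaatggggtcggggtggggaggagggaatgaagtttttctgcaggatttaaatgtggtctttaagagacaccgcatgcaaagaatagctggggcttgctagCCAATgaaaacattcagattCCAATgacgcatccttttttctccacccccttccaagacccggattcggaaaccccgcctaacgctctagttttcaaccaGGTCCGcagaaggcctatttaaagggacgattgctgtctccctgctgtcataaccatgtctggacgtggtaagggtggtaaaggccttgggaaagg
A match is a string of letters and not a measured binding site.

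Per kilobase of exon, the mean over the 6 libraries ranged from 5.08 normalised reads for Hist2h3c2 to 1970 for Hist1h4d. On this scale the median level was 139 for H4, 101 for H1, 50.7 for H2b, 43.8 for H2a and 41.0 for H3 genes. The authors left out reads that fell on several places, and the part of this in the levels was not tested. Of all stretches of 100 bases in a member's exons, a median of 65.6% occurred nowhere else in the annotated transcripts, with a range from 10.5% for Hist1h2ah to 100% in 50 members with a value. In 16 members the share was below 50%, and in 6 it was below 20%. In addition, 17 members share exonic bases with another gene, so their values are uncertain.

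Summed over all 57 genes, the value was 4302 and 2632 (control), 4708 and 3616 (mdx) and 7217 and 9362 (Sirt6mKO/mdx). The Sirt6mKO/mdx libraries were thus above all others, while mdx and control overlapped. The ratio of means was 1.20 for mdx to control, 1.99 for Sirt6mKO/mdx to mdx and 2.39 for Sirt6mKO/mdx to control. As a share of all values of a library, the ratio for Sirt6mKO/mdx to mdx was 1.31. In bulk RNA, more cells that make histone mRNA and more histone mRNA per cell cannot be told apart.

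Sums were also taken by histone type. H2a genes summed to 205 and 131 (control), 494 and 455 (mdx) and 686 and 1299 (Sirt6mKO/mdx). H2b genes summed to 568 and 389, 1016 and 849, and 987 and 2043 in the same order. Both H2 types stood higher in both mdx libraries than in both control libraries, as did H1 and H3 genes. H3 genes summed to 180 and 140, 238 and 277, and 423 and 793. H1 genes summed to 606 and 771 (control), 1391 and 956 (mdx) and 1027 and 1340 (Sirt6mKO/mdx), so the last 2 groups overlapped. H4 genes took another course, with 2743 and 1201 (control), 1569 and 1079 (mdx) and 4094 and 3887 (Sirt6mKO/mdx), where mdx overlapped control and Sirt6mKO/mdx lay above both.

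**Figure D1:**
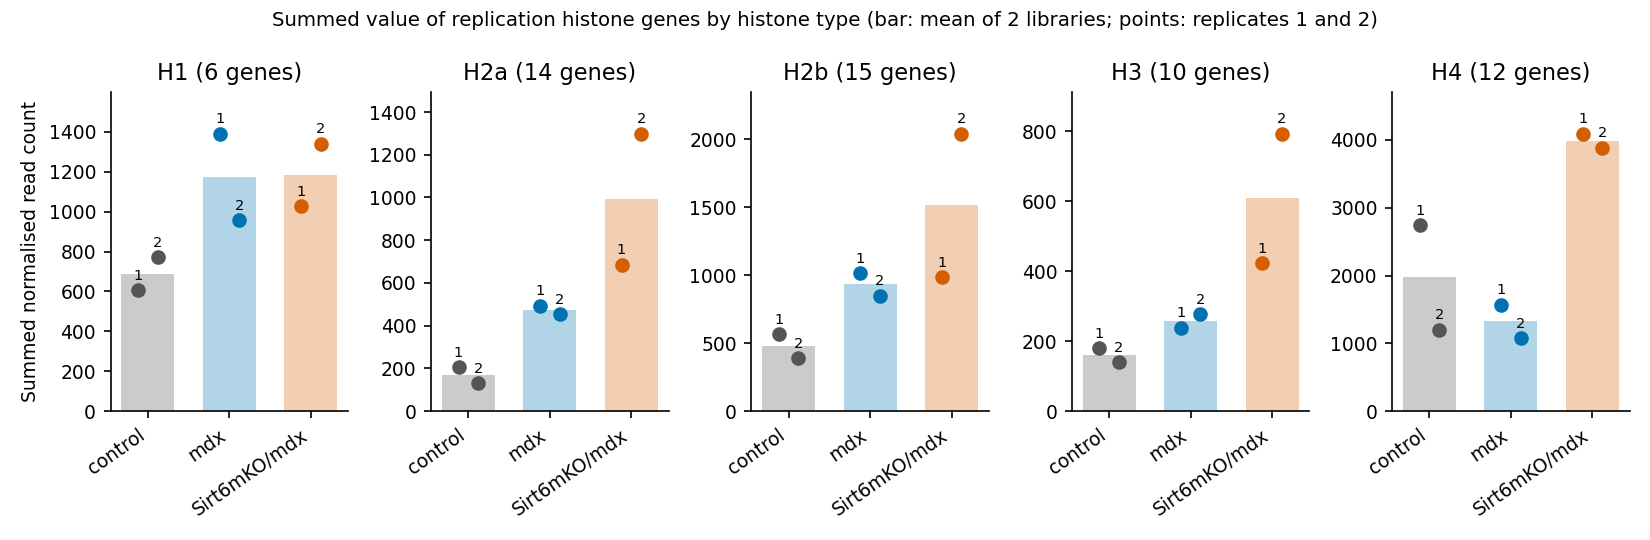
Summed normalised read count of the members of each histone type (y axis, linear from 0) in control, mdx and Sirt6mKO/mdx; bars are the mean of 2 libraries, and points marked 1 and 2 are the replicates. H2a sums are lowest in control (205 and 131), then mdx (494 and 455) and Sirt6mKO/mdx (686 and 1299), whereas H4 sums of mdx (1569 and 1079) overlap control (2743 and 1201).

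To ask how dystrophic muscle changes these genes in MuSCs, mdx was compared with control. H1, H2a and H2b genes held nearly all of the differences: 11 members rose, 1 fell and 45 were not called. Of all 15915 genes tested, 6.89% were called higher and 7.34% lower. A gene was called at an adjusted p of at most 0.05 (limma, two-sided, Benjamini-Hochberg over all genes tested) and an absolute log2 fold change of at least 1, on the log2(value + 1) scale used throughout. The median log2 fold change of the members was 0.82, that of all genes 0.00, and 44 of 57 members had a positive value. Without 1 library at a time the number of members called higher was 9 without either control library, 3 without mdx replicate 1, 4 without mdx replicate 2, and 9 and 6 without Sirt6mKO/mdx replicates 1 and 2.

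By type, the median log2 fold change from control to mdx was 2.15 for H2a, 0.76 for H1, 0.75 for H2b and 0.72 for H3 genes. Without 1 library at a time these ranged from 1.60 to 2.15, 0.39 to 1.12, 0.52 to 1.24 and 0.47 to 1.03. Among H2a genes 4 of 14 were called higher, among H2b genes 4 of 15 higher and 1 lower, and among H1 genes 2 of 6 higher. The H2a median was 1.13 with a pseudocount of 5 and 1.31 with a minimum mean of 20. In 10 members, 7 of them H2a genes, the control mean was under 5, so they reached the minimum through the other groups, which favours a positive value. They include 4 of the 11 called higher from control to mdx (Hist1h2ab, Hist1h2ai, Hist1h2ah and Hist1h2bk) and 2 of the 18 from control to Sirt6mKO/mdx (Hist1h2ab and Hist1h2ai), so the medians of H2a genes and these calls are descriptions only. No H3 gene was called. H4 genes had a median of -0.33 with 1 of 12 called higher, and leaving out control replicate 1 gave 0.43, leaving out replicate 2 of control -0.80. All 11 members that rose belong to the Hist1 group, which holds 48 of the 57, and the 1 that fell to the Hist2 group.

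**Figure D2:**
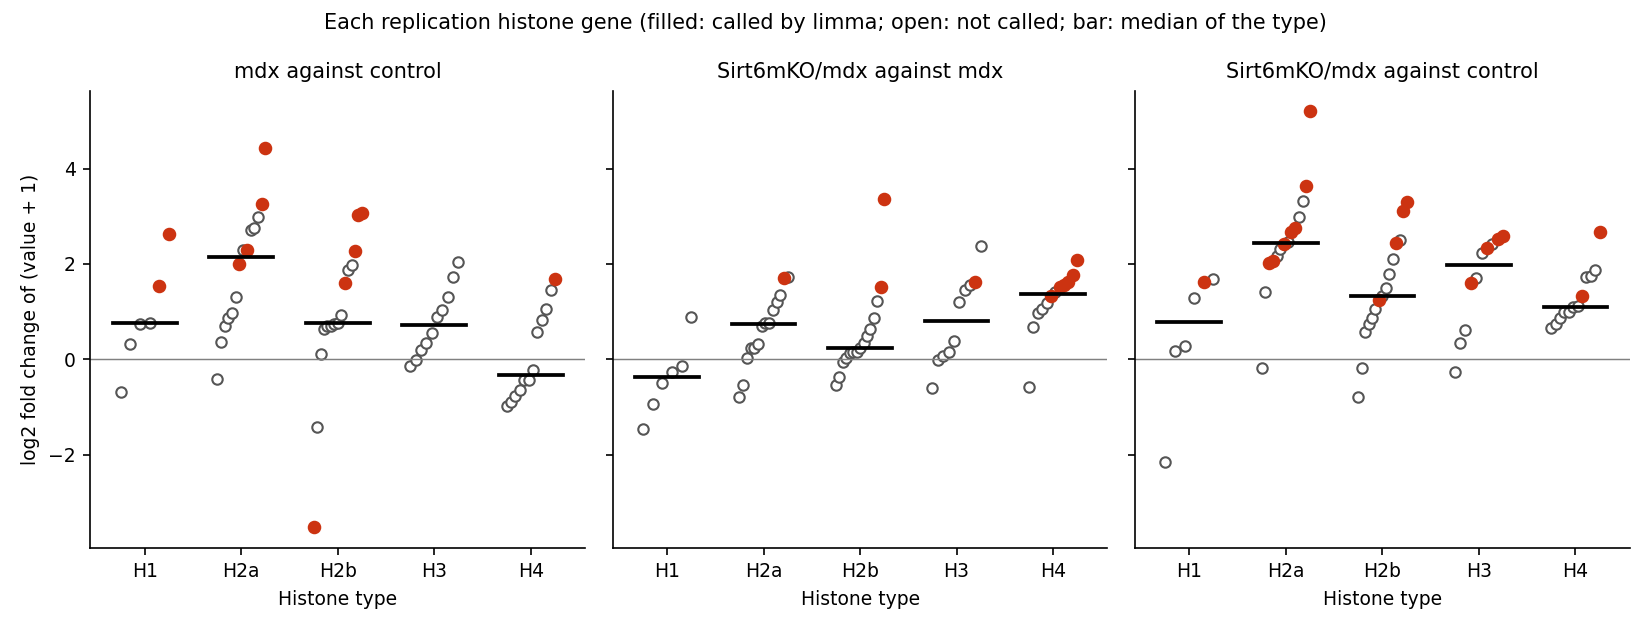
Log2 fold change of (value + 1) (y axis) of each member, by histone type (x axis), in the 3 comparisons; filled points were called by limma, open points were not, and bars are medians of a type. In mdx against control the H2a median (2.15) is the highest and the H4 median (-0.33) the lowest, while in Sirt6mKO/mdx against mdx the H4 median (1.37) is the highest.

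The member that rose most was Hist1h2ab, a core histone H2a gene at chr13:23751088-23751593, whose promoter above holds a TATA box, a CCAAT box and the octamer. Its values were 3 and 1 (control), 64 and 57 (mdx) and 63 and 168 (Sirt6mKO/mdx). It was near absent in both control libraries and clearly detected in the other 4. The log2 fold change from control to mdx was 4.44 (SE 0.65, adjusted p = 0.00029, limma). The gene reached the minimum mean through the groups where it is high, so the filter favoured this call. It rests on about 3 reads in control against 171 in mdx, a ratio of 39.7 with an exact 95% counting interval of 13.4 to 194. Only 46.9% of its 100-base stretches are unique, and 138 of its exonic bases are shared with another gene.

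Hist1h2ah and Hist1h2bk, an H2a and an H2b gene that start back to back, rose together at very low levels. Hist1h2ah had 0 and 1 (control), 8 and 19 (mdx) and 5 and 9 (Sirt6mKO/mdx). Its log2 fold change from control to mdx was 3.25 (SE 1.07, adjusted p = 0.0497, limma), and the ratio of about 36 reads to 1 was 25.1 with an exact 95% interval of 4.22 to 1020. Hist1h2bk had 3 and 1 (control), 18 and 27 (mdx) and 5 and 41 (Sirt6mKO/mdx). Its log2 fold change was 3.03 (SE 0.98, adjusted p = 0.0465, limma), with a ratio of 14.4 (4.7 to 71.7) for about 62 reads to 3. Each call was lost in 5 of the 6 fits without 1 library. Both genes reached the minimum mean only through libraries where they are high, so the filter favoured these calls and they support nothing by themselves. Only 10.5% of the stretches of Hist1h2ah and 19.3% of those of Hist1h2bk are unique.

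Among better measured genes, Hist1h2bb, an H2b gene, had 39 and 15 (control), 215 and 209 (mdx) and 150 and 411 (Sirt6mKO/mdx). Control lay far below the other groups. Its log2 fold change from control to mdx was 3.07 (SE 0.48, adjusted p = 0.00051, limma), and it was called in all 6 fits that left out 1 library. Hist1h2bm, another H2b gene, had 9 and 21, 88 and 57, and 60 and 104, a log2 difference of 2.28 (SE 0.53, adjusted p = 0.0092, limma). The 1 H4 gene that rose was Hist1h4i, with 44 and 17, 89 and 92, and 145 and 220 and a log2 difference of 1.68 (SE 0.45, adjusted p = 0.0186, limma), so its control libraries were the lowest. Hist1h2bm was called in 4 and Hist1h4i in 2 of the 6 fits without 1 library.

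Linker histone genes differed among themselves. Hist1h1b had 12 and 21 (control), 93 and 114 (mdx) and 36 and 80 (Sirt6mKO/mdx), and rose from control to mdx by 2.62 on the log2 scale (SE 0.51, adjusted p = 0.0030, limma). Hist1h1a had 59 and 28, 113 and 127, and 71 and 141 in the same order, and rose by 1.53 (SE 0.44, adjusted p = 0.0279, limma). Both encode replication-dependent H1 proteins. The value of Hist1h1a ranged from 1.01 to 2.06 over the fits without 1 library, and its call did not hold in most of them. The H1 gene with the highest mean, Hist1h1e, had 192 and 486 (control), 702 and 388 (mdx) and 288 and 477 (Sirt6mKO/mdx), with overlapping groups. Hist1h1d had 124 and 32, 83 and 75, and 67 and 76. Hist1h1t, the H1 gene known from testis, had 51 and 7, 22 and 6, and 2 and 6. None of these 3 genes was called in any comparison.

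The 1 member that fell was Hist2h2bb, an H2b gene at chr3:96269721-96279001. It had 33 and 61 (control), 3 and 3 (mdx) and 56 and 28 (Sirt6mKO/mdx). Mdx was low in both libraries, and the other groups overlapped. Its log2 fold change was -3.52 from control to mdx (SE 0.68, adjusted p = 0.0026, limma) and 3.35 from mdx to Sirt6mKO/mdx (SE 0.68, adjusted p = 0.0068, limma). It was the only member called in opposite directions in these comparisons, which share the mdx libraries. No stem-loop was found in its transcript models. Of its exonic bases, 257 are shared with Gm20628 or with another gene entry that also carries the symbol Hist2h2bb.

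Sirt6mKO/mdx was next compared with mdx, to ask what loss of Sirt6, a histone deacetylase, adds in dystrophic muscle. H4 genes held most of the differences: 10 members rose, 6 of them H4 genes, and none fell. Of all genes tested, 5.62% were called higher and 2.54% lower. The median log2 fold change of the members was 0.67, that of all genes 0.02, and 44 members had a positive value. No member was called lower by limma, and 18 had an unadjusted p under 0.05 in either direction. The number called higher was 3 without mdx replicate 1, 0 without mdx replicate 2, 1 without Sirt6mKO/mdx replicate 1 and 0 without Sirt6mKO/mdx replicate 2, where 1 group held a single library.

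The counts of this comparison depended on the scaling. With libraries set to equal totals, the median of all genes moved to -0.58, the median of the members to 0.06, and 3 members were called higher and 1 lower. All genes were then split into 479 higher and 2932 lower, against 895 and 405 with the scaling of the authors. The H4 median stayed positive at 0.75 under equal totals, against 1.37.

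By type, the median log2 fold change from mdx to Sirt6mKO/mdx was 1.37 for H4, 0.80 for H3, 0.73 for H2a, 0.23 for H2b and -0.37 for H1 genes. The H2b median was -0.40 under equal totals and -0.24 without Sirt6mKO/mdx replicate 2, so its direction depends on both. Leaving out that library also took the H3 median from 0.80 to 0.04 and the H2a median from 0.73 to 0.25, whereas the H4 median ranged from 1.07 to 1.45 over the 6 fits without 1 library. The H1 median ranged from -0.80 to -0.09 over these fits. Among H4 genes 11 of 12 values were positive and 6 were called. The called members outside H4 were Hist1h2bg, Hist2h2bb, Hist2h2ac and Hist1h3e, and no H1 gene was called. Of the 6 Hist2 genes 3 were called, as was Hist4h4, and 6 of the 48 Hist1 genes.

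The H4 protein is among the most conserved of all proteins, and its genes encode nearly one and the same product. Hist1h4d at chr13:23581598-23581990, the member with the highest level per kilobase, had 725 and 405 (control), 510 and 311 (mdx) and 1333 and 1370 (Sirt6mKO/mdx). Its log2 fold change from mdx to Sirt6mKO/mdx was 1.76 (SE 0.31, adjusted p = 0.0026, limma). Hist1h4c at chr13:23698060-23698454 had 716 and 181, 208 and 159, and 969 and 622, with a log2 difference of 2.09 (SE 0.45, adjusted p = 0.0107, limma). Both had the H4 form of the stem-loop and GGTCCG in the promoter, and the control libraries of Hist1h4c differed widely.

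Hist4h4 had 459 and 228 (control), 271 and 111 (mdx) and 402 and 653 (Sirt6mKO/mdx), and rose from mdx by 1.56 on the log2 scale (SE 0.41, adjusted p = 0.0275, limma). Hist2h4 had 307 and 147, 238 and 140, and 571 and 367, and rose by 1.32 (SE 0.36, adjusted p = 0.0357, limma). Hist1h4h had 257 and 141, 111 and 111, and 373 and 270, and rose by 1.51 (SE 0.32, adjusted p = 0.010, limma). In these H4 genes the first control library was the higher one and came close to Sirt6mKO/mdx or overlapped it. Hist1h4a had 77 and 34, 28 and 38, and 127 and 82, and rose by 1.62 (SE 0.48, adjusted p = 0.0483, limma).

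Some short noncoding RNAs also had their highest values in Sirt6mKO/mdx, though none of the 3 given here was called in any comparison by limma. Rmrp and Rpph1, short RNAs made by RNA polymerase III, had 37327 and 16832, and 106904 and 36156, in control. In mdx they had 30465 and 19551, and 68208 and 32030, and in Sirt6mKO/mdx 158770 and 114439, and 313776 and 172022. As in the summed H4 genes, the first library of control and of mdx was the higher one. Rn7sk, also of polymerase III, had 93611 and 75143, 305947 and 213198, and 593895 and 1116360, and unlike the H4 sums it was already higher in both mdx libraries than in both control libraries. The 96 other protein-coding genes tested that span at most 1000 bases had a median log2 fold change of 0.62 from mdx to Sirt6mKO/mdx, with 7 called higher and 1 lower. Their median was -0.25 from control to mdx and 0.34 from control to Sirt6mKO/mdx. The part of small RNAs or of transcript length in the H4 result was not tested.

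**Figure D3:**
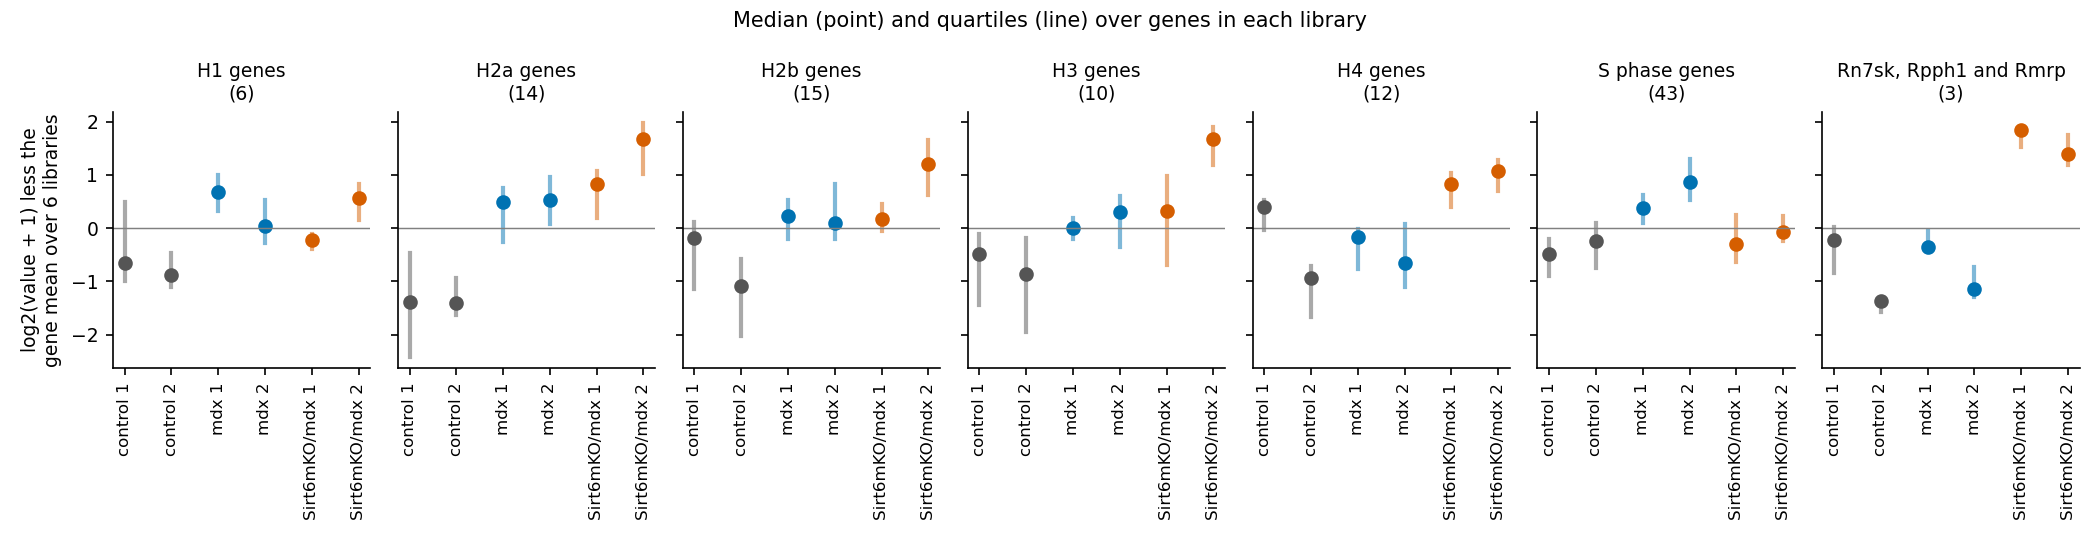
Log2(value + 1) of a gene less its mean over the 6 libraries (y axis), as the median (point) and quartiles (line) over the genes of each histone type, the S phase list and 3 short noncoding RNAs, in each library (x axis). H4 genes have medians of 0.40 and -0.93 (control), -0.17 and -0.65 (mdx) and 0.83 and 1.07 (Sirt6mKO/mdx), whereas S phase genes are highest in mdx, at 0.38 and 0.87.

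Markers of other cell types were also read, although the sort was set to remove Sca1+, CD45+ and CD31+ cells. All 7 myofibre markers were detected and summed to 6611 and 8653 (control), 4706 and 1435 (mdx) and 10302 and 4749 (Sirt6mKO/mdx), with 4 called lower in mdx than in control and 3 called higher in Sirt6mKO/mdx than in mdx. All 6 endothelial markers summed to 910 and 801, 426 and 420, and 619 and 628, with 2 of the 5 tested called lower in mdx than in control. The 6 macrophage and leukocyte markers in the table, of 8 listed, summed to 128 and 168, 101 and 89, and 215 and 181, and Itgam was under 10 in all libraries. Of the 5 leukocyte markers tested, 1 was higher and 1 lower in mdx than in control, and 1 was higher in Sirt6mKO/mdx than in control. The 5 erythroid markers stayed between 7 and 91 in sum, with 1 of 2 tested called higher in Sirt6mKO/mdx than in mdx. All 6 fibro-adipogenic markers summed to 18184 and 25059, 35506 and 29787, and 19251 and 26768, with 2 called higher from control to mdx and 1 lower from mdx to Sirt6mKO/mdx. The 3 Schwann markers summed to 14 to 47, and the 4 of smooth muscle and pericytes to 1009 to 3030, with 1 of the latter called higher in mdx than in control. Of the 9 MuSC markers, 2 were called lower in mdx and 2 in Sirt6mKO/mdx than in control, and 1 was higher in Sirt6mKO/mdx than in mdx. Their part in the histone results was not tested.

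Outside H4, Hist1h2bg, an H2b gene, rose from group to group. It had 45 and 36 (control), 143 and 108 (mdx) and 193 and 653 (Sirt6mKO/mdx). It was the 1 member called higher both from control to mdx, by 1.60 (SE 0.45, adjusted p = 0.0248, limma), and from mdx to Sirt6mKO/mdx, by 1.51 (SE 0.45, adjusted p = 0.0497, limma). The latter value was 0.63 without Sirt6mKO/mdx replicate 2 and 2.38 without replicate 1 of that group. Neither call held in most of the fits without 1 library. Hist2h2ac, the H2a gene with the highest mean, had 42 and 32, 73 and 72, and 180 and 315, and rose from mdx by 1.70 (SE 0.38, adjusted p = 0.0128, limma). Hist1h3e, an H3 gene, had 42 and 29, 33 and 36, and 102 and 114, and rose by 1.62 (SE 0.44, adjusted p = 0.0330, limma). Mdx and control overlapped in Hist1h3e and did not in the other 2 genes.

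Sirt6mKO/mdx was last compared with control, which joins both changes. Differences spread over all 5 histone types: 18 members rose and none fell. Of all genes tested, 5.19% were called higher and 2.68% lower. The median log2 fold change of the members was 1.69, that of all genes 0.01, and 52 of 57 had a positive value. No member was called lower by limma, while 33 had an unadjusted p under 0.05 in either direction. Without control replicate 1, 24 were called higher, and the number was 11 when replicate 2 of control was left out, 12 without either mdx library, 9 without Sirt6mKO/mdx replicate 1 and 2 without Sirt6mKO/mdx replicate 2. Under equal totals 13 members were called higher and none lower, while the split of all genes went from 826 higher and 427 lower to 455 and 2693.

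By type, the median log2 fold change from control to Sirt6mKO/mdx was 2.43 for H2a, 1.97 for H3, 1.32 for H2b, 1.10 for H4 and 0.78 for H1 genes. Among H2a genes 7 of 14 were called, among H2b 4 of 15, among H3 4 of 10, among H4 2 of 12 and among H1 1 of 6. The H4 median was 1.92 without control replicate 1 and 0.42 without the other control library, and the H1 median was 0.18 under equal totals. Single libraries also differed, with 44 members higher in Sirt6mKO/mdx replicate 2 than in replicate 1 and 39 higher in control replicate 1 than in replicate 2.

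The largest difference among members was again that of Hist1h2ab, with a log2 difference of 5.20 (SE 0.65, adjusted p = 0.00016, limma). The ratio of about 131 reads to 3 was 72.3, with an exact 95% interval of 24.2 to 355. Hist1h2ai, another H2a gene, had 2 and 6 (control), 22 and 21 (mdx) and 37 and 84 (Sirt6mKO/mdx). Its log2 fold change from control was 3.63 (SE 0.72, adjusted p = 0.0061, limma), on only 11.6% unique stretches, and like Hist1h2ab it had a control mean under the minimum. Among called members, Hist1h2bb followed with 3.30 (SE 0.48, adjusted p = 0.00053, limma) and Hist1h2bg with 3.11 (SE 0.45, adjusted p = 0.00054, limma). Hist1h2ak, an H2a gene, had 38 and 20 (control), 131 and 98 (mdx) and 130 and 285 (Sirt6mKO/mdx), with a log2 difference of 2.76 (SE 0.44, adjusted p = 0.0012, limma). In all of these 5 genes the Sirt6mKO/mdx libraries lay above both control libraries, and the second Sirt6mKO/mdx library was the higher one.

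Other members named for a high mean within their type were also called against control. Hist1h1c, an H1 gene also known for polyadenylated transcripts, had 168 and 197 (control), 378 and 246 (mdx) and 563 and 560 (Sirt6mKO/mdx), a log2 difference of 1.62 from control (SE 0.27, adjusted p = 0.0018, limma). It was the only H1 gene called there. Hist1h3i, the H3 gene with the highest mean, had 15 and 29, 53 and 54, and 77 and 201, a log2 difference of 2.52 (SE 0.52, adjusted p = 0.0075, limma). Hist1h3f had 50 and 9, 55 and 30, and 115 and 112, a log2 difference of 2.34 (SE 0.63, adjusted p = 0.0322, limma), with control libraries far apart. Hist1h2be, the H2b gene with the highest mean but with only 59.3 normalised reads per kilobase, had 210 and 107, 317 and 203, and 306 and 413, a log2 difference of 1.24 (SE 0.34, adjusted p = 0.0343, limma), and 496 of its exonic bases are shared with other genes, Hist1h1e among them. Hist1h2ac had 29 and 17, 80 and 40, and 57 and 151, a log2 difference of 2.01 (SE 0.55, adjusted p = 0.0327, limma).

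**Figure D4:**
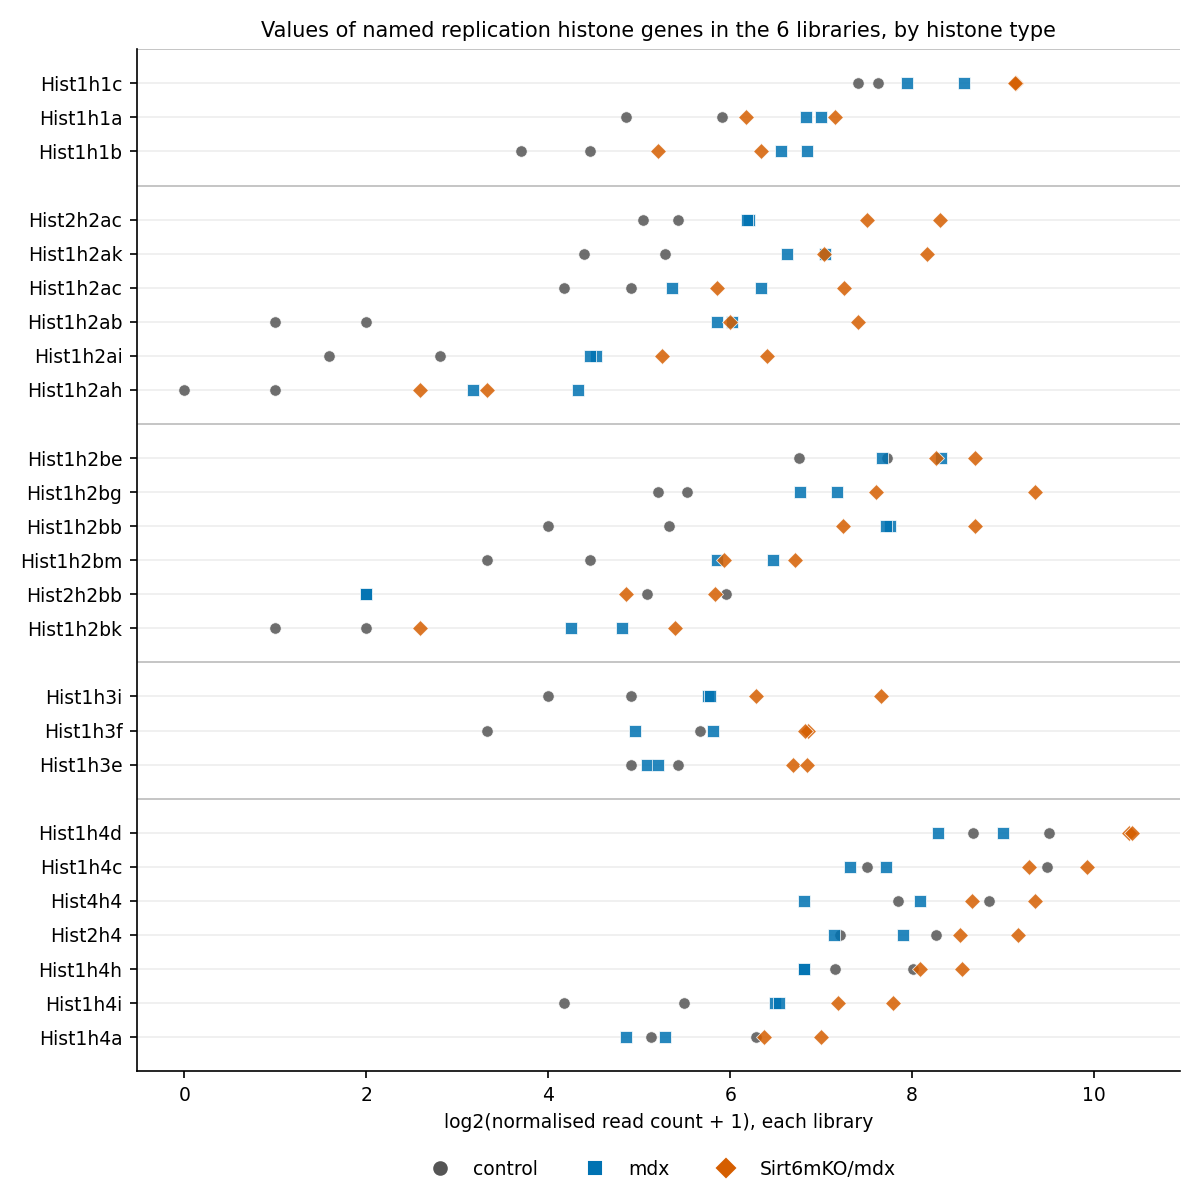
Log2(normalised read count + 1) (x axis) of members called in a comparison and described in the text (y axis, grouped by histone type), 1 symbol per library: circles control, squares mdx, diamonds Sirt6mKO/mdx. For Hist1h2ab the control values (3 and 1 reads on the linear scale) lie far to the left of mdx (64 and 57), while for Hist1h4d both mdx values (510 and 311) lie left of Sirt6mKO/mdx (1333 and 1370).

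Hist3h2a and Hist3h2ba are an H2a and an H2b gene outside the large groups. Hist3h2a had 38 and 15 (control), 12 and 26 (mdx) and 22 and 20 (Sirt6mKO/mdx). Hist3h2ba had 6 and 2, 5 and 3, and 12 and 9. The groups overlapped for Hist3h2a, while for Hist3h2ba both Sirt6mKO/mdx libraries lay above the other 4, at a mean of 6.17. Neither was called in any comparison.

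Across comparisons, 28 members were called at least once and 29 never. Of the 11 that rose in mdx, 7 were also called higher in Sirt6mKO/mdx against the same control libraries, and none was called lower from mdx to Sirt6mKO/mdx. Hist1h2bg, Hist1h4d, Hist1h3e and Hist2h2ac, named here after their values were seen, were called higher in Sirt6mKO/mdx against both other groups. These comparisons share libraries, so the counts are not independent.

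Members with and without a promoter motif were set side by side. Of 11 H2a and H2b genes with the octamer, 6 were called higher and 1 lower from control to mdx (54.5% and 9.09%, beside 6.89% and 7.34% of all genes), with a median log2 fold change of 1.60. Of the 15 with a promoter but no octamer, 2 were called higher (13.3%), with a median of 0.92. That median was 0.52 without control replicate 2 and 1.53 without mdx replicate 1. Among the called genes, Hist1h2ab, Hist1h2ah and Hist1h2bk with the octamer and Hist1h2ai without it had a control mean under 5. They reached the minimum through the other groups, so the filter favoured these calls and the counts are descriptions only. Hist1h2ah and Hist1h2bk also share their octamer. From mdx to Sirt6mKO/mdx, 4 of 12 genes with GGTCCG were called higher (33.3%, beside 5.62% of all genes), with a median of 1.19, and 5 of 39 without it (12.8%), with a median of 0.24. Without Sirt6mKO/mdx replicate 2 these medians were 0.68 and -0.08. Of the 12, 10 are H4 genes, so the motif and the histone type cannot be told apart.

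Genes that act with the replication histones were read from fixed lists. Replacement histone genes, whose products enter chromatin outside S phase, had a median log2 fold change of -0.04 from control to mdx, 0.31 from mdx to Sirt6mKO/mdx and 0.34 from control to Sirt6mKO/mdx, with 11 genes tested. The first of these was positive without either control library or without mdx replicate 1, and the other 2 turned to -0.31 and -0.14 under equal totals. H1f0, a linker histone of resting and differentiated cells, had 296 and 280 (control), 690 and 952 (mdx) and 419 and 599 (Sirt6mKO/mdx), and rose from control to mdx by 1.49 (SE 0.27, adjusted p = 0.0015, limma). H3f3a, which encodes replacement H3, had 692 and 365, 262 and 123, and 368 and 436, a log2 difference of -1.48 from control to mdx (SE 0.36, adjusted p = 0.0111, limma). H2afz, which encodes replacement H2A, had 352 and 183, 123 and 72, and 201 and 220, a log2 difference of -1.42 (SE 0.35, adjusted p = 0.0131, limma). H3f3b had 1813 and 1253, 1438 and 1132, and 1763 and 1895, and H2afx, whose product marks DNA breaks, had 89 and 29, 40 and 61, and 62 and 61. Neither was called, and no replacement gene was called from mdx or from control to Sirt6mKO/mdx.

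Of 24 factors for transcription and 3′ processing of histone mRNA in the table, 2 were higher and 2 lower from control to mdx, or 8.33% each way beside 6.89% and 7.34% of all genes. From mdx to Sirt6mKO/mdx the counts were again 2 and 2, beside 5.62% and 2.54% of all genes. Npat, a co-activator of replication histone genes, had 160 and 174 (control), 351 and 279 (mdx) and 139 and 138 (Sirt6mKO/mdx), and was lower in Sirt6mKO/mdx than in mdx by a log2 difference of -1.17 (SE 0.28, adjusted p = 0.0168, limma). Casp8ap2, which acts in histone mRNA 3′ processing, had 95 and 184, 228 and 330, and 167 and 132, and rose from control to mdx by 1.05 (SE 0.34, adjusted p = 0.0493, limma). Slbp had 272 and 248, 183 and 176, and 317 and 339 and was not called. Ccne2, a cyclin of S phase entry, rose from control to mdx by 1.60 (SE 0.51, adjusted p = 0.0452, limma).

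Zfp473, a zinc finger protein of the U7 snRNP machinery, had 73 and 31 (control), 9 and 5 (mdx) and 43 and 52 (Sirt6mKO/mdx). Mdx was below both other groups, with a log2 difference of -2.65 from control to mdx (SE 0.62, adjusted p = 0.0092, limma) and 2.64 from mdx to Sirt6mKO/mdx (SE 0.62, adjusted p = 0.0168, limma). Cdkn1a, an inhibitor of the cell cycle, had 952 and 531, 206 and 178, and 449 and 413, with -1.89 (SE 0.29, adjusted p = 0.00042, limma) and 1.16 (SE 0.29, adjusted p = 0.0208, limma). Ncbp2, a subunit of the cap-binding complex, had 255 and 271, 358 and 279, and 82 and 155. It was lower in Sirt6mKO/mdx than in mdx, by -1.48 (SE 0.32, adjusted p = 0.0101, limma), and than in control, by -1.21 (SE 0.32, adjusted p = 0.0278, limma).

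Among 24 histone chaperones in the table, 2 rose and 1 fell from control to mdx (8.33% and 4.17%, beside 6.89% and 7.34% of all genes), and 2 fell from mdx to Sirt6mKO/mdx (8.33%, beside 2.54%). Chaf1b, a subunit of the complex that places new H3 and H4 on copied DNA, had 14 and 14, 35 and 86, and 43 and 30, and rose from control to mdx by 1.90 (SE 0.58, adjusted p = 0.0359, limma). Asf1a, which hands H3 and H4 to other chaperones, rose by 1.02 (SE 0.32, adjusted p = 0.0406, limma). Ubn1, a subunit of the HIRA complex for replacement H3, had 1233 and 1261, 506 and 457, and 902 and 795, a log2 difference of -1.37 (SE 0.24, adjusted p = 0.0011, limma). Ssrp1, a subunit of the FACT complex, had 483 and 864, 901 and 889, and 296 and 322, and was lower in Sirt6mKO/mdx than in mdx by -1.53 (SE 0.28, adjusted p = 0.0035, limma). Dnajc9, an H3 and H4 chaperone, was lower there by -1.72 (SE 0.47, adjusted p = 0.0343, limma). From control to Sirt6mKO/mdx, Ssrp1 had -1.06 (SE 0.28, adjusted p = 0.0279, limma) and Ipo4, an importin for histones, -1.01 (SE 0.25, adjusted p = 0.0225, limma).

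The median of S phase genes had the opposite sign to that of all replication histones between mdx and Sirt6mKO/mdx. By type this did not hold for H1 genes, with a median of -0.37. Of 43 S phase genes, 12 rose and none fell from control to mdx (27.9% higher, beside 6.89% of all genes), with a median log2 fold change of 1.04. From mdx to Sirt6mKO/mdx none rose and 4 fell (9.30%, beside 2.54% of all genes), with a median of -0.88, where the replication histones had 10 called higher and a median of 0.67. Under equal totals the medians were -1.49 for S phase genes and 0.06 for the histones. The difference between the lists was not tested. From control to Sirt6mKO/mdx the S phase median was 0.18 with 1 gene called, and -0.39 under equal totals. Members of the replicative helicase and of repair were among the genes called lower from mdx to Sirt6mKO/mdx: Mcm5 by -1.94 (SE 0.38, adjusted p = 0.0060, limma), Blm by -1.77 (SE 0.45, adjusted p = 0.0250, limma) and Mcm6 by -1.24 (SE 0.30, adjusted p = 0.0181, limma). From control to mdx the largest rises were those of E2f8, Rad51ap1 and Tipin, with 3.42, 2.99 and 1.96. Pcna, the sliding clamp of DNA polymerase, had 764 and 490, 378 and 290, and 348 and 478 and was not called.

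Proliferation genes had the same signs as the S phase list, with medians of 2.24 and -0.80. The first was 1.46 with a pseudocount of 5, and the second was -0.05 without Sirt6mKO/mdx replicate 1 and -1.70 without Sirt6mKO/mdx replicate 2. Mki67, a marker of cycling cells, had 39 and 80 (control), 252 and 548 (mdx) and 99 and 162 (Sirt6mKO/mdx). It rose from control to mdx by 2.71 (SE 0.42, adjusted p = 0.00052, limma) and was lower in Sirt6mKO/mdx than in mdx by -1.55 (SE 0.42, adjusted p = 0.0342, limma). Of the 10 genes of this list 5 rose from control to mdx, beside 6.89% of all genes, and 2 fell from mdx to Sirt6mKO/mdx, beside 2.54%, namely Mki67 and Top2a, a topoisomerase of chromosome segregation. Bub1, a kinase of the spindle checkpoint, had 3 and 1 (control), 59 and 44 (mdx) and 14 and 48 (Sirt6mKO/mdx). The H4 sums given above were higher in both Sirt6mKO/mdx libraries than in both mdx libraries.

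**Figure D5:**
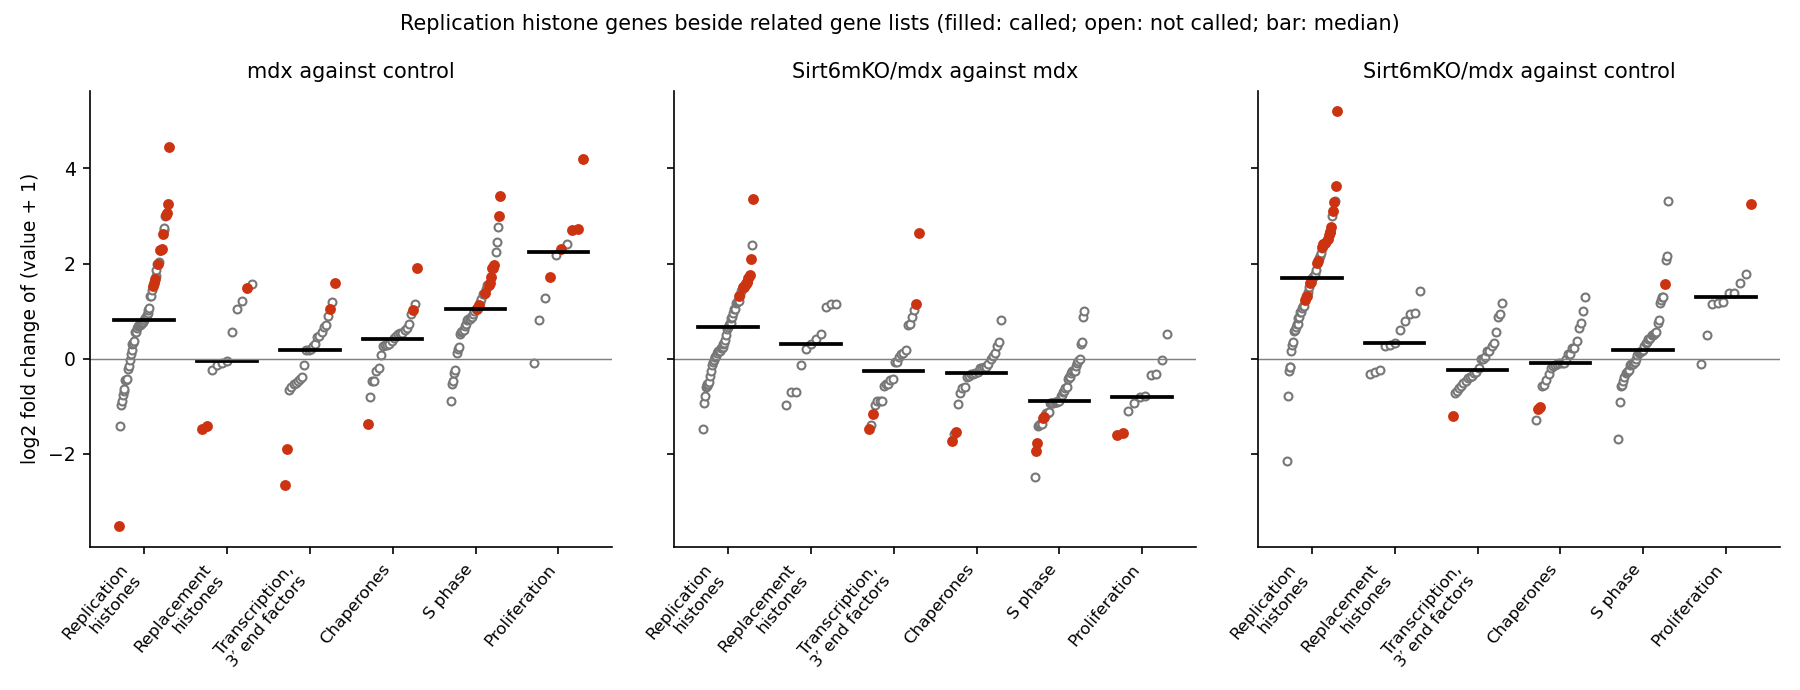
Log2 fold change of (value + 1) (y axis) of the 57 replication histone genes and of 5 related gene lists (x axis) in the 3 comparisons; filled points were called by limma, open points were not, and bars are medians. In Sirt6mKO/mdx against mdx the bar of the replication histones lies above 0 (0.67) and that of the S phase genes below 0 (-0.88).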

How the data were processed

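RNA-seq was made from sorted MuSCs of 6 samples, 2 biological replicates per group according to the study's methods, and groups were taken from the sample labels. The authors trimmed the reads with Reaper, aligned them to GRCm38 with STAR, counted reads per gene with featureCounts, leaving out reads on several genes or places, and scaled with DESeq2. The submitters' processing notes name STAR 2.4.2a, featureCounts 1.4.5-p1 and DESeq2 1.6.0, while the methods of the paper name other versions of STAR and DESeq2. Use of strand is not given in the sources used here. The deposited values, treated here as a score, are the authors' counts divided by a size factor per library and rounded to whole numbers. They are therefore not raw counts, and a model for log values was used.

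From these values, log2(value + 1) was fitted with limma 3.58.1 (trend, R 4.3.3) over all 6 libraries and the 15915 genes with a mean of at least 5. The 3 group differences were tested two-sided with Benjamini-Hochberg adjustment over all genes. A gene was called at an adjusted p of at most 0.05 and an absolute log2 fold change of at least 1. P-values set each group difference against the spread between these samples, moderated by a variance prior drawn from all genes. The fit was tested on simulated data. Approximate reads were recovered from the size factors, and exact conditional 95% intervals on them cover counting error only. The members and gene lists were chosen with earlier results of these data known. Named were the 3 members of each type with the highest mean, called members (the 5 largest in a direction where over 10), all H1, Hist3 and Hist4 members, the genes next to the minimum, fixed list genes and up to 3 called genes per list and direction. Alternatives changed the pseudocount (0.1 or 5), the minimum mean (none or 20), the scaling, the variance prior, the samples in the fit and the replicate block, and left out each library. Replicate numbers of the groups correlated by -0.128, 0.119 and 0.009 and were not treated as pairs.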

Additional observations from a re-analysis of the deposited data

How the results depend on the processing

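The median log2 fold change of the 57 replication histone genes stayed positive in all 3 comparisons under every alternative tried, between 0.58 and 1.21 (mdx against control), 0.06 and 1.27 (Sirt6mKO/mdx against mdx) and 1.13 and 2.17 (Sirt6mKO/mdx against control). The number of calls depended far more on the settings, and with 2 libraries per group the spread is known poorly. Of the single-gene results under alternatives, 787 kept their side of the threshold, 365 lost the call and none changed sign.

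With no minimum mean, mdx against control gave 417 genes higher, 572 lower and 3 members higher, Sirt6mKO/mdx against mdx 154, 14 and 0, and Sirt6mKO/mdx against control 169, 52 and 3. With one prior variance for all genes in place of a trend, these were 181, 360 and 1, then 0, 0 and 0, and then 65, 22 and 1. Under equal totals, Sirt6mKO/mdx against mdx gave 479 genes higher and 2932 lower, with 3 members higher and 1 lower, and against control 455 and 2693. The same scaling turned the median of H2b genes to -0.40 and of replacement histones to -0.31 against mdx, and of replacement histones to -0.14 and S phase genes to -0.39 against control. As a share of all values, the summed members gave a ratio of Sirt6mKO/mdx to mdx of 1.31. With only the 2 groups compared in the fit, 7 members were higher in mdx than in control, and 541 genes were higher in Sirt6mKO/mdx than in control. The causes of these changes were not tested.

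Leaving out 1 library at a time gave 282 to 1192 genes higher, 657 to 1164 lower, 3 to 9 members higher and 1 to 4 lower for mdx against control. For Sirt6mKO/mdx against mdx it gave 182 to 997, 21 to 481 and 0 to 10 members higher, and for Sirt6mKO/mdx against control 167 to 853, 46 to 461 and 2 to 24. The lone library left in a group is then assumed to vary like the others. The summed ratio of mdx to control ranged from 0.967, without control replicate 2, to 1.58. The medians of histone types and lists that changed sign ranged from -0.80 to 0.43 (H4; 0.03 without mdx replicate 2), -0.04 to 0.74 (replacement histones; 0.13 and 0.25 without control replicate 2 and mdx replicate 1) and -0.15 to 0.31 (transcription and 3′ end factors) for mdx against control. They ranged from -0.24 to 0.86 (H2b) and -0.33 to 0.01 (factors) against mdx, and from -0.30 to 0.01 (factors) and -0.15 to 0.01 (chaperones) for Sirt6mKO/mdx against control.

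With the replicate number as a block, 12 members were called higher and 1 lower for mdx against control, 10 higher for Sirt6mKO/mdx against mdx and 23 for Sirt6mKO/mdx against control. A crossed pairing of control and mdx, chosen after seeing the data, gave 10 members higher and 1 lower, with 1138 genes higher and 1234 lower.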

Other observations

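Of the 9 pairs of an H2a and an H2b gene that start back to back, 176 to 269 bases apart, 8 had log2 fold changes of the same sign from control to mdx, 6 from mdx to Sirt6mKO/mdx and 8 from control to Sirt6mKO/mdx. Most H2a and H2b genes had a positive value in any case, 13 of 14 and 13 of 15 from control to mdx and 12 of 14 and 12 of 15 from mdx to Sirt6mKO/mdx, so these counts do not show that paired genes move together. Hist1h2ae and Hist1h2bg, which start 176 bases apart, had 0.86 and 1.60 from control to mdx. The 5 histone genes known for polyadenylated transcripts in resting cells, Hist1h1c, Hist1h2bc, Hist1h2be, Hist1h2ac and Hist2h2be, had medians of 0.74, 0.63 and 1.24 in the 3 comparisons in the same order, with none called in the first 2 by limma (4 and 1 had an unadjusted p under 0.05) and 3 called higher in the last one, where 5.19% of all genes were.

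Among the 16 members with fewer than 50% unique stretches of 100 bases, 4 were called higher from control to mdx (25%, beside 6.89% of all genes), none from mdx to Sirt6mKO/mdx (1 had an unadjusted p under 0.05, and 5.62% of all genes were called) and 3 from control to Sirt6mKO/mdx (18.8%, beside 5.19%). Among the 34 members at or above 50%, these counts were 6, 10 and 12 by limma (17.6%, 29.4% and 35.3%). Of the 34, 1 was called lower from control to mdx (2.94%, beside 7.34% of all genes). The 4 members below 50% called higher from control to mdx were Hist1h2ab, Hist1h2ai, Hist1h2ah and Hist1h2bk, all with a control mean under 5. Hist1h2ab and Hist1h2ai were also among the 3 called from control to Sirt6mKO/mdx. The filter favoured these calls, so the shares below 50% are descriptions only.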
